A study of Mus musculus with 14 samples.

Results

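Uninjured hind limb muscle of Myf6 knockout (KO) mice was compared with uninjured hind limb muscle of wild-type (WT) mice by RNA-seq. The comparison takes in 6 of the 14 samples of the series, chosen by their labels as the uninjured libraries, with 3 libraries for each genotype. The other samples are 6 RNA libraries from injured muscle of the same genotypes and 2 samples of a ChIP-seq experiment, 1 with a Flag antibody against Flag-tagged Myf6 in primary myotubes and 1 control. Each RNA library carries a number that occurs with L in the uninjured and with R in the injured libraries of a genotype, which is read here as naming the animal and its leg. The labels do not give the Myf6 allele, the strain, the age or sex of the mice, the muscle within the hind limb, the kind of injury or the time after it. WT and KO carry different animal numbers, so genotype cannot be told apart from litter, housing or day of dissection.

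Myf6 (MRF4 in older work) encodes a DNA-binding protein with a basic helix-loop-helix domain. It belongs to the myogenic regulatory factors with Myf5, Myod1 and Myog, which bind E-boxes, short DNA motifs with the core CANNTG, and switch on genes of the muscle fibre. Of that family Myf6 is the main one kept on in adult muscle fibres. A muscle fibre is built from sarcomeres, whose myosins, troponins and tropomyosins come in fast and slow forms encoded by separate genes.

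The 6 libraries held between 1880087 and 42772614 reads assigned to genes. WT replicate 2 was the shallowest, and 3 of its reads correspond to 1.60 RPM, that is reads per 1000000 reads assigned to genes, against 0.0701 to 0.236 RPM in the other libraries. KO replicate 2 stood apart in another way: with 12704445 reads it had 14065 genes with a read, fewer than the 14338 of WT replicate 2. Mitochondrially encoded genes took 18.1%, 22.3% and 13.8% of the reads in WT replicates 1, 2 and 3, and 6.76%, 15.3% and 3.63% in KO replicates 1, 2 and 3. The summed level of 10 markers of the skeletal muscle fibre was 135720 to 147900 RPM in WT and 179910 to 202180 RPM in KO, so the labelled tissue carried its markers in every library. Both genotypes expressed the Y-linked gene Ddx3y, at 28.5 to 69.1 RPM, and Xist was at 0.515 RPM or less in all 6 libraries.

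Myf6 itself was low in every KO library. It was at 46.2, 25.0 and 111 RPM in WT replicates 1, 2 and 3, and at 1.86, 3.46 and 2.27 RPM in KO replicates 1, 2 and 3. The ranges did not overlap, and the difference KO minus WT on the log2(RPM + 1) scale was -3.90 (SE 0.51, limma adjusted p = 0.0215). With 3 libraries against 3 the exact two-sided permutation test gave p = 0.1, the smallest it can give. The remaining KO values were above the 3-read floor of their libraries. Whether the reads come from the part of the gene that the allele removes cannot be read from a value per gene. The limma adjusted p of Myf6 was 0.241 without WT replicate 1, 0.056 without WT replicate 3 and 0.257 without KO replicate 1.

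Of 49585 genes in the table, 12460 reached 1 RPM in at least 3 of the 6 libraries and were tested. At a limma adjusted p under 0.05, 35 genes changed, which is 0.281% of those tested. Of these, 16 rose in KO (0.128% of genes tested) and 19 fell (0.152%), and the 2 genotypes did not overlap for any of the 35. A gene under 1 RPM in all libraries of 1 genotype was tested only if every library of the other reached 1 RPM. For such genes, Gm8420 among them, the filter alone fixes the lack of overlap. With at least 1 RPM required in all 6 libraries, 15 of the 35 were tested and 7 of them passed. Of all genes tested, 6.2% lay wholly higher and 15.5% wholly lower in KO than in WT. Without that adjustment 1774 genes had a p under 0.05, with 440 higher (3.53%) and 1334 lower in KO (10.7%). The median difference of all genes was -0.18 on the log2 scale, and it was -0.02 after TMM scaling, so estimates near that size are within what scaling moves. The higher genes were 11 pseudogenes, 4 protein-coding genes and 1 gene without an entry in the gene table used for types, and the lower ones were 12 protein-coding genes, 4 long noncoding RNAs and 3 mitochondrial tRNA genes.

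How many genes passed depended on single libraries and on the test. Leaving out WT replicates 1, 2 or 3 left 5, 10 and 5 called genes, and leaving out KO replicates 1, 2 or 3 left 3, 32 and 84. Scaling to the reads outside mitochondrial genes gave 189 called genes, of which 16.4% were higher in KO, against 45.7% of the 35. All 35 passed with the same sign under TMM scaling, upper quartile scaling and DESeq2 on whole reads recovered from the RPM values, and 22 of them passed under edgeR. Those fits called 104 genes (0.835%) with TMM scaling, 55 (0.441%) with edgeR and 663 (5.33%) with DESeq2.

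**Figure D1:**
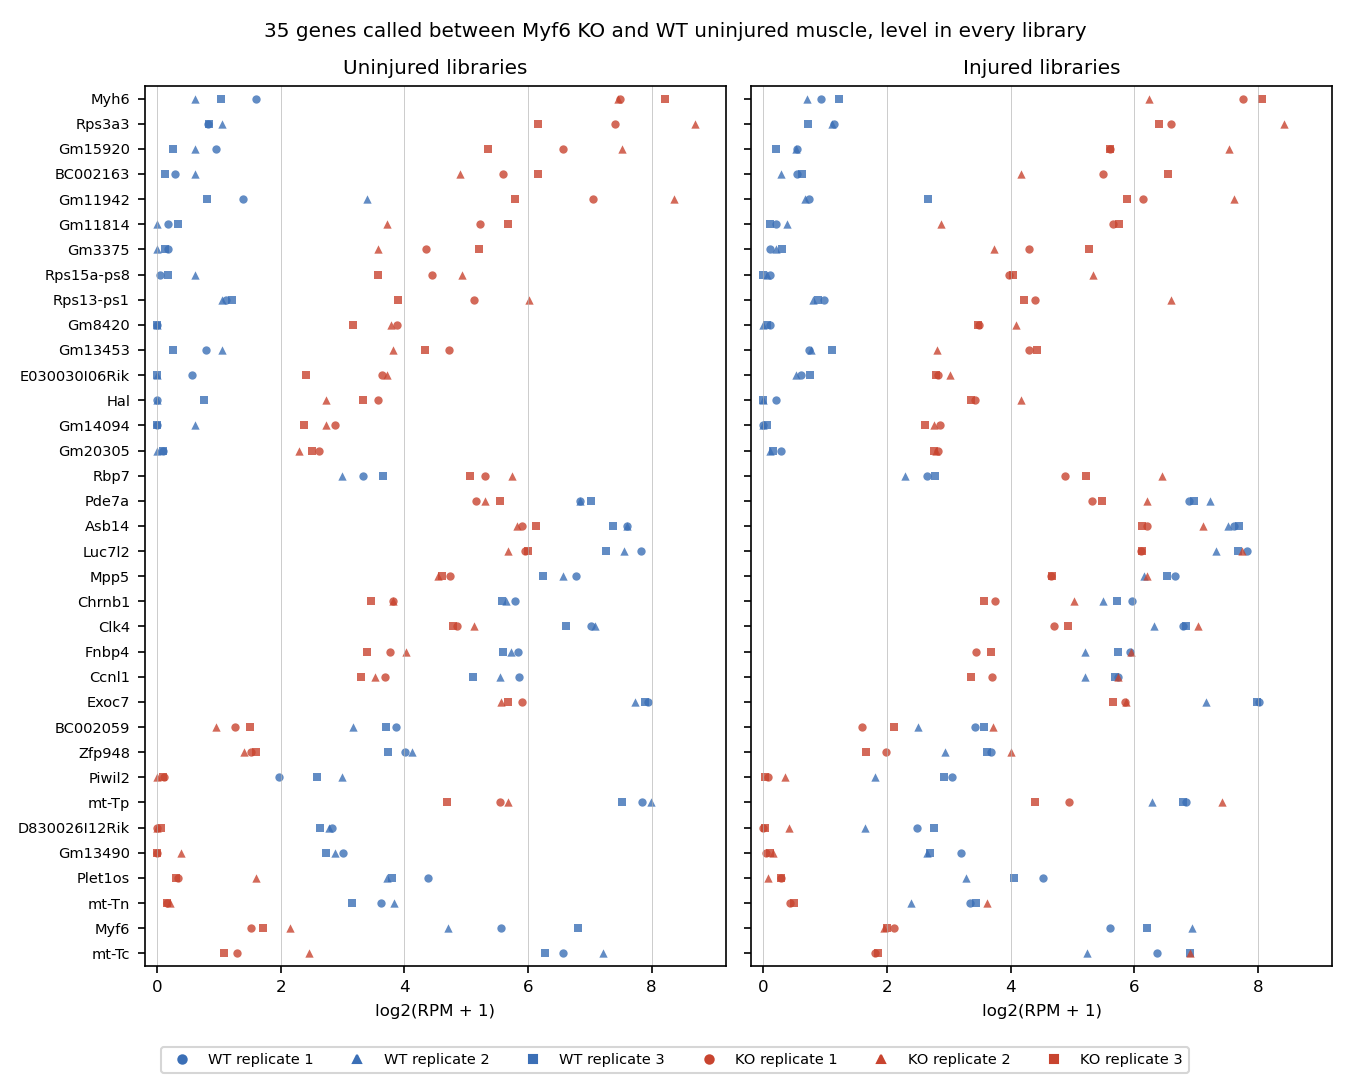
Level of the 35 called genes on the log2(RPM + 1) scale in every uninjured library (left) and every injured library (right), with WT in blue and KO in red and a symbol for each replicate. In the uninjured libraries no gene overlaps between the genotypes, which the filter alone fixes for genes under 1 RPM in all libraries of 1 genotype. In the injured libraries KO replicate 2 (red triangle) lies among or near the WT points for most of the lower genes.

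The largest rise was that of Myh6, the alpha cardiac myosin heavy chain, which is the neighbour and close relative of the slow myosin gene Myh7. Myh6 was at 2.03, 0.532 and 1.05 RPM in WT replicates 1, 2 and 3 and at 180, 176 and 296 RPM in the KO replicates. The difference was 6.64 on the log2(RPM + 1) scale (SE 0.36, limma adjusted p = 0.000206), and the gene passed in all 16 alternatives that tested it. How the authors' counting treated reads shared by close paralogs is not given in the sources used here. Myh6 belongs to a list of developmental and cardiac sarcomere genes of which 9 of 14 were tested. With Myh6 counted, 5 of the 9 had a higher estimate at an unadjusted p under 0.05 (55.6% against 3.53% of all genes tested) and none a lower one. The median of the 9 was 1.05. Myl4, an embryonic and atrial myosin light chain, was at 10.7, 6.38 and 10.8 RPM in WT and 24.8, 22.3 and 18.5 RPM in KO. Myh8, the perinatal myosin, was at 965, 646 and 1019 RPM in WT and 2322, 1246 and 1969 RPM in KO. Their limma adjusted p values were 0.173 and 0.196. Other cardiac genes of the list did not share the level of Myh6: Myl7, Nppa and Nppb had no read in any of the 6 libraries.

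Among 16 slow-fibre contractile genes, 15 had a higher estimate in KO, 7 of them at an unadjusted p under 0.05 (43.8% against 3.53% of all genes tested) and none lower at that level. None of the 16 passed the limma adjusted p, 1 passed with edgeR and 7 with DESeq2, which called 2.74% of all genes higher. Myh7, the slow myosin heavy chain, was at 134, 119 and 102 RPM in WT replicates 1, 2 and 3 and at 496, 249 and 661 RPM in KO (difference 1.88, SE 0.36, limma adjusted p = 0.0694). Tnnt1, the slow troponin T, was at 203, 218 and 264 RPM in WT and 683, 354 and 567 RPM in KO, a difference of 1.18 (SE 0.30, limma adjusted p = 0.145). Both genes lay wholly above WT in KO, and KO replicate 2 was the lowest of the KO libraries for each. Tnnc1, the slow and cardiac troponin C, was at 155, 152 and 195 RPM in WT and 488, 262 and 346 RPM in KO (limma adjusted p = 0.154).

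KO replicate 2 was also the lowest KO library in 3 further slow genes, which were picked after their values were seen. Tpm3, the slow alpha-tropomyosin, was at 175, 119 and 264 RPM in WT and 617, 269 and 690 RPM in KO. Tnni1, the slow troponin I, was at 62.4, 60.6 and 99.0 RPM in WT and 257, 91.3 and 266 RPM in KO, so that KO replicate 2 fell inside the WT range. Myl2, the slow regulatory myosin light chain, was at 321, 310 and 471 RPM in WT and 964, 450 and 612 RPM in KO, again with KO replicate 2 inside the WT range. The differences of the 3 genes were 1.46, 1.34 and 0.83, with limma adjusted p values of 0.180, 0.211 and 0.295. The slow list as a whole summed to 0.824%, 0.715% and 1.09% of the slow and fast contractile RPM in WT and to 1.44%, 0.677% and 1.96% in KO, where KO replicate 2 was the lowest of all 6. Without KO replicate 2, 11 of the 16 genes were higher at an unadjusted p under 0.05, against 7.57% of all genes, and without WT replicate 2, 6 were, against 1.94%.

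The promoters of 2 of these slow-fibre genes are shown because a Flag-Myf6 peak summit from the myotube ChIP-seq lay within them and because each held the E-box CAGCTG. They were picked after their values were seen. The sequences are the 250 bases before the annotated start, both on the plus strand, from RefSeq's GRCm38.p6, at chr5:122092939-122093188 for Myl2 and chr3:90072401-90072650 for Tpm3. The motif is in capitals and reads the same on both strands.
Myl2: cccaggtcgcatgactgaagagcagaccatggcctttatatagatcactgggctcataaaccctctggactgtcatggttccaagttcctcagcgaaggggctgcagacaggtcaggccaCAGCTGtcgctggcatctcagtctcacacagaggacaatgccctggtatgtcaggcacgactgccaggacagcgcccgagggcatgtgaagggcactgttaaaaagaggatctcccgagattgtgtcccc
Tpm3: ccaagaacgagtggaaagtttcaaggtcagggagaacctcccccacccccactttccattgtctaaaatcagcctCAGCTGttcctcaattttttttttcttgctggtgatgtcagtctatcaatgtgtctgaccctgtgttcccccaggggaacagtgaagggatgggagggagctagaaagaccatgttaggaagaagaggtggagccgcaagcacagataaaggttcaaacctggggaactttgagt
In the Myl2 promoter the motif began 130 bases before the start, the peak summit lay 122 bases from the start, and the authors' fold enrichment of the peak was 14.2. In the Tpm3 promoter the motif began 175 bases before the start, the summit lay 165 bases away, and the fold enrichment was 8.22. Of the 32851 promoter windows of that length in the table, 13.0% hold CAGCTG, so a match is common and is a description of the sequence only.

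Fast-fibre contractile genes leaned the same way, with a median of 0.46 against 0.52 for the slow list. Over 4 scalings the fast median ran from 0.304 to 0.652. The summed fast list was at 221000 to 236620 RPM in WT and 257850 to 319020 RPM in KO, without overlap on the RPM scale. TMM scaling divided WT replicates 1, 2 and 3 by 1.11, 0.913 and 1.20 and the KO replicates by 0.982, 0.712 and 1.17. After that division the sum of KO replicate 3 lay inside the WT range. The summed slow list overlapped, at 1703 to 2442 RPM in WT and 2176 to 5163 RPM in KO. Of 16 fast-fibre genes, 14 had a higher estimate, 2 of them at an unadjusted p under 0.05 (12.5% against 3.53%). The count of 2 was 5 without KO replicate 2 and 1 without KO replicate 1. With 1 library left out the share of all genes at that p also moved: it was 2.24% higher and 5.02% lower without WT replicate 1, 3.32% and 7.32% without WT replicate 3, 1.57% and 8.02% without KO replicate 1, and 2.54% and 16.6% without KO replicate 3, beside the shares given above without the second replicates. None passed with limma or edgeR, and 4 passed with DESeq2. Actn3, the fast-fibre alpha-actinin of the Z-disc, was at 7201, 7623 and 5446 RPM in WT and 15333, 12317 and 12197 RPM in KO (difference 0.98, SE 0.29, limma adjusted p = 0.189). Mybpc2, the fast myosin-binding protein C, was at 2418, 2352 and 2251 RPM in WT and 4831, 2962 and 6705 RPM in KO. The fast myosin Myh4 made up 96.8% to 98.9% of the adult myosin heavy chain RPM in WT and 92.6% to 99.1% in KO, and Myh7 made up 0.193% to 0.261% in WT and 0.265% to 1.03% in KO.

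Genes of the Z-disc, titin and the cytoskeleton had 22 of 30 estimates above 0 and 7 at an unadjusted p under 0.05, all higher (23.3% against 3.53%), with a median of 0.26. Limma and edgeR called none of them and DESeq2 called 6, and the count of 7 was 9 without KO replicate 2, 4 without WT replicate 1 and 3 without WT replicate 2. Without KO replicate 3, 6 were higher and 5 lower, where 2.54% and 16.6% of all genes were. Des, the intermediate filament desmin, was at 2827, 2452 and 2570 RPM in WT and 5219, 5116 and 5281 RPM in KO, a difference of 0.99 (SE 0.24, limma adjusted p = 0.137). Its KO replicates were close together and all above WT. Ckm, the muscle creatine kinase, was at 5508, 6649 and 5408 RPM in WT and 10059, 9111 and 16030 RPM in KO (limma adjusted p = 0.217). Among 21 genes of excitation-contraction coupling 4 were higher at an unadjusted p under 0.05 (19.05% against 3.53%) and none lower. Jph2, which ties the T-tubule to the sarcoplasmic reticulum, was 1 of the 4, at 290, 267 and 384 RPM in WT and 696, 506 and 1061 RPM in KO. The median of the coupling list, 0.02, changed sign with the scaling, limma and edgeR called none of its genes, and DESeq2 called 5. None of 18 dystrophin complex genes reached an unadjusted p under 0.05 with limma, none passed the adjusted p with limma, edgeR or DESeq2, and their estimates ran from -0.54 to 0.51.

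**Figure D2:**
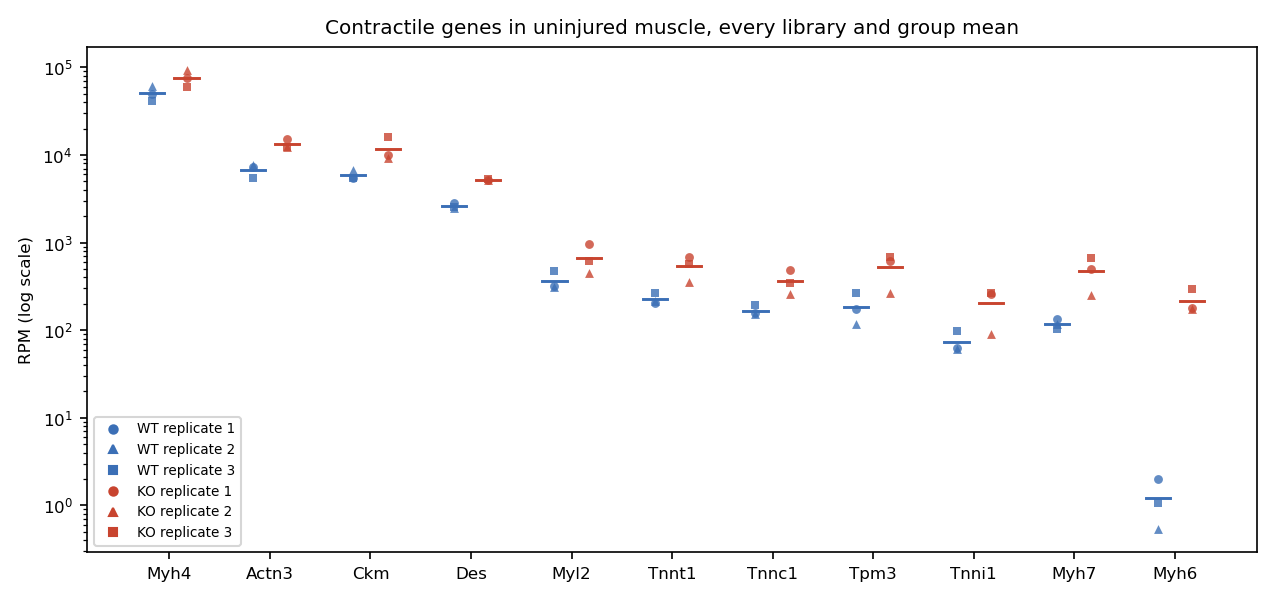
RPM on a log scale of 11 muscle genes in every uninjured library, with WT in blue, KO in red, a symbol for each replicate and a bar at each group mean. Myh6 lies near 1 RPM in WT and above 175 RPM in KO, and for Tnni1, Myl2 and Tpm3 the lowest KO point (replicate 2) reaches or nears the highest WT point.

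Most of the other genes that rose were pseudogenes, nonfunctional copies of other genes, and 3 of them carry the names of ribosomal protein genes. Rps3a3 was at 0.772, 1.06 and 0.791 RPM in WT and 169, 417 and 70.4 RPM in KO (difference 6.52, SE 0.56, limma adjusted p = 0.00269). Gm15920 was at 0.933, 0.532 and 0.198 RPM in WT and 94.2, 182 and 39.8 RPM in KO. Gm11942 was at 1.61, 9.57 and 0.758 RPM in WT and 131, 329 and 54.4 RPM in KO. For these 3 pseudogenes KO replicate 2 was the highest and KO replicate 3 the lowest, and the same order held for Rps13-ps1 (34.0, 64.1 and 13.8 RPM) and Rps15a-ps8 (20.7, 29.5 and 10.9 RPM).

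A pseudogene and the gene it resembles can take each other's reads, so the members of a pair were also summed. Rps3a1, the gene that encodes the ribosomal protein, was at 431, 378 and 509 RPM in WT and 314, 117 and 270 RPM in KO. The sum of Rps3a3 and Rps3a1 was 440.1 ± 66.2 RPM in WT and 452.5 ± 100 RPM in KO (SD, n = 3), which is closer than either gene alone. The sum of Rps13-ps1 and Rps13 was 259 ± 54.3 RPM in WT and 183 ± 39.3 RPM in KO, and that of Rps15a-ps8 and Rps15a was 364 ± 79.7 and 246 ± 57.7 RPM. Whether reads of the genes were assigned to the pseudogenes was not tested.

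Another set of called genes had a different order of KO libraries, with replicate 3 highest and replicate 2 lowest. BC002163 was at 0.225, 0.532 and 0.0988 RPM in WT and 47.3, 28.7 and 71.0 RPM in KO. Gm11814 was at 0.129, 0 and 0.264 RPM in WT and 36.2, 12.2 and 50.0 RPM in KO. Gm3375 was at 0.129, 0 and 0.0988 RPM in WT and 19.3, 10.9 and 36.0 RPM in KO. In WT replicate 2 each of these 3 genes had 1 read or none. Gm8420 had no read in any WT library and was at 13.8, 12.8 and 8.04 RPM in KO. The remaining 3 called pseudogenes, Gm13453, Gm14094 and Gm20305, were at 1.06 RPM or less in WT and at 3.94 to 25.4 RPM in KO.

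Besides Myh6, 3 protein-coding genes rose, and they are named here for completeness of the list and not by the naming rule. Rbp7, a cellular retinol-binding protein found in endothelium and fat, was at 9.08, 6.91 and 11.7 RPM in WT and 38.6, 52.7 and 32.3 RPM in KO (difference 2.04, SE 0.33, limma adjusted p = 0.0494). Hal, histidine ammonia-lyase, which starts the breakdown of histidine, was at 0, 0 and 0.692 RPM in WT and 11.0, 5.67 and 9.02 RPM in KO. E030030I06Rik was at 0.483, 0 and 0 RPM in WT and 11.4, 12.1 and 4.30 RPM in KO.

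Among the genes that fell, the one with the smallest adjusted p of the protein-coding genes was Exoc7, a subunit of the exocyst, which tethers secretory vesicles to the plasma membrane. Exoc7 was at 244, 212 and 236 RPM in WT and 58.9, 46.5 and 50.3 RPM in KO (difference -2.13, SE 0.24, limma adjusted p = 0.00786). Chrnb1, the beta subunit of the muscle acetylcholine receptor, was at 54.5, 48.9 and 47.1 RPM in WT and 13.1, 13.1 and 10.1 RPM in KO (difference -1.98, SE 0.27, limma adjusted p = 0.0267). In both genes the spread within each genotype was small beside the gap. Chrnb1 was the only one of 16 tested neuromuscular junction genes called by limma. EdgeR called none of the 16 and DESeq2 called 1 lower. Limma called none of them without WT replicate 1, 2 or 3 or without KO replicate 1. Agrn, the nerve and muscle protein agrin that gathers the receptors, was at 34.6, 34.0 and 24.3 RPM in WT and 16.9, 15.3 and 9.82 RPM in KO (limma adjusted p = 0.186). The median of the junction list was -0.16, near that of all genes.

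Further protein-coding genes fell by 1.56 to 2.45 on the log2 scale. Pde7a, a phosphodiesterase that breaks down cyclic AMP, was at 113, 114 and 128 RPM in WT and 34.8, 38.3 and 46.0 RPM in KO. Asb14, a substrate adaptor of ubiquitin ligases, was at 194, 193 and 165 RPM in WT and 59.0, 55.4 and 69.4 RPM in KO. Mpp5, the polarity scaffold PALS1, was at 109, 94.1 and 74.5 RPM in WT and 25.6, 22.4 and 23.4 RPM in KO. None of these genes overlapped between the genotypes. Zfp948, a zinc finger gene, was at 15.1, 16.5 and 12.3 RPM in WT and 1.86, 1.65 and 2.03 RPM in KO, and Piwil2, a PIWI protein known from the germ line, was at 2.93, 6.91 and 5.04 RPM in WT and 0.0761, 0 and 0.0701 RPM in KO. Of the 4 long noncoding RNAs, Plet1os was at 19.8, 12.2 and 12.9 RPM in WT and 0.266, 2.05 and 0.234 RPM in KO. Gm13490, D830026I12Rik and BC002059 were at 5.20 to 13.5 RPM in WT and at 1.82 RPM or less in KO.

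Genes for splicing factors and kinases, and RNAs kept in the nucleus, were lower as a group. Of 23 tested members all had an estimate below 0, and 21 had an unadjusted p under 0.05 (91.3% against 10.7% of all genes). The list was written with earlier results of these data known, so these shares describe it and are not a test of it. The median was -1.24 and ran from -1.39 to -1.05 over 4 scalings. Limma called 2 of them, edgeR 1 and DESeq2 11, where DESeq2 called 2.59% of all genes lower. Clk4, a kinase of the SR splicing factors, was at 129, 135 and 97.2 RPM in WT and 27.9, 33.8 and 26.7 RPM in KO (difference -1.99, SE 0.26, limma adjusted p = 0.0215). Luc7l2, a component near the U1 particle of the spliceosome, was at 227, 187 and 153 RPM in WT and 60.8, 50.1 and 62.7 RPM in KO (difference -1.68, SE 0.26, limma adjusted p = 0.0427).

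Further RNAs of the list did not pass. Srsf6, an SR splicing factor, was at 166, 136 and 125 RPM in WT and 53.3, 43.1 and 55.1 RPM in KO (limma adjusted p = 0.058). Malat1, a long noncoding RNA of nuclear speckles, was at 240, 213 and 284 RPM in WT and 90.8, 106 and 81.1 RPM in KO (limma adjusted p = 0.058), and Neat1, the scaffold of paraspeckles, was at 2547, 3107 and 1348 RPM in WT and 1108, 1707 and 474 RPM in KO. Malat1 did not overlap between the genotypes and Neat1 did, and both were picked after their values were seen. Ccnl1, cyclin L1, which acts with splicing kinases, and Fnbp4, a formin-binding protein, are not on the list and fell (limma adjusted p = 0.0444 and 0.0323), from 33.4 to 56.7 RPM in WT to 8.81 to 15.3 RPM in KO. Without KO replicate 2 the list had 20 members lower at an unadjusted p under 0.05, against 9.23% of all genes, and without WT replicate 2 it had 18, against 10.1%.

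Mitochondrially encoded RNAs were lower in KO with a wide spread between libraries. All 11 tested genes for mitochondrial proteins had an estimate below 0, 8 of them at an unadjusted p under 0.05 (72.7% against 10.7%), with a median of -1.22. Limma and edgeR called none of them and DESeq2 called 1. Their summed level was 169370, 206920 and 131120 RPM in WT and 64826, 148120 and 34853 RPM in KO, so KO replicate 2 lay inside the WT range. mt-Co1, a subunit of complex IV, was at 37392, 52073 and 27514 RPM in WT and 11377, 29294 and 6990.2 RPM in KO. Under TMM scaling 2 of the 11 had an unadjusted p under 0.05. The count of 8 was 10 without KO replicate 2, 6 without WT replicate 3, 5 without KO replicate 3, 4 without WT replicate 2 and 3 without WT replicate 1 or KO replicate 1. Of 24 mitochondrial tRNA and rRNA genes 6 were tested and 14 had no read in any library, and 3 tRNA genes fell. The tRNA gene for cysteine, mt-Tc, was at 94.1, 147 and 76.3 RPM in WT and 1.45, 4.49 and 1.12 RPM in KO (difference -5.07, SE 0.43, limma adjusted p = 0.00269). mt-Tn was at 7.91 to 13.3 RPM in WT and 0.114 to 0.157 RPM in KO, and mt-Tp was at 183 to 254 RPM in WT and 24.8 to 50.4 RPM in KO.

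**Figure D3:**
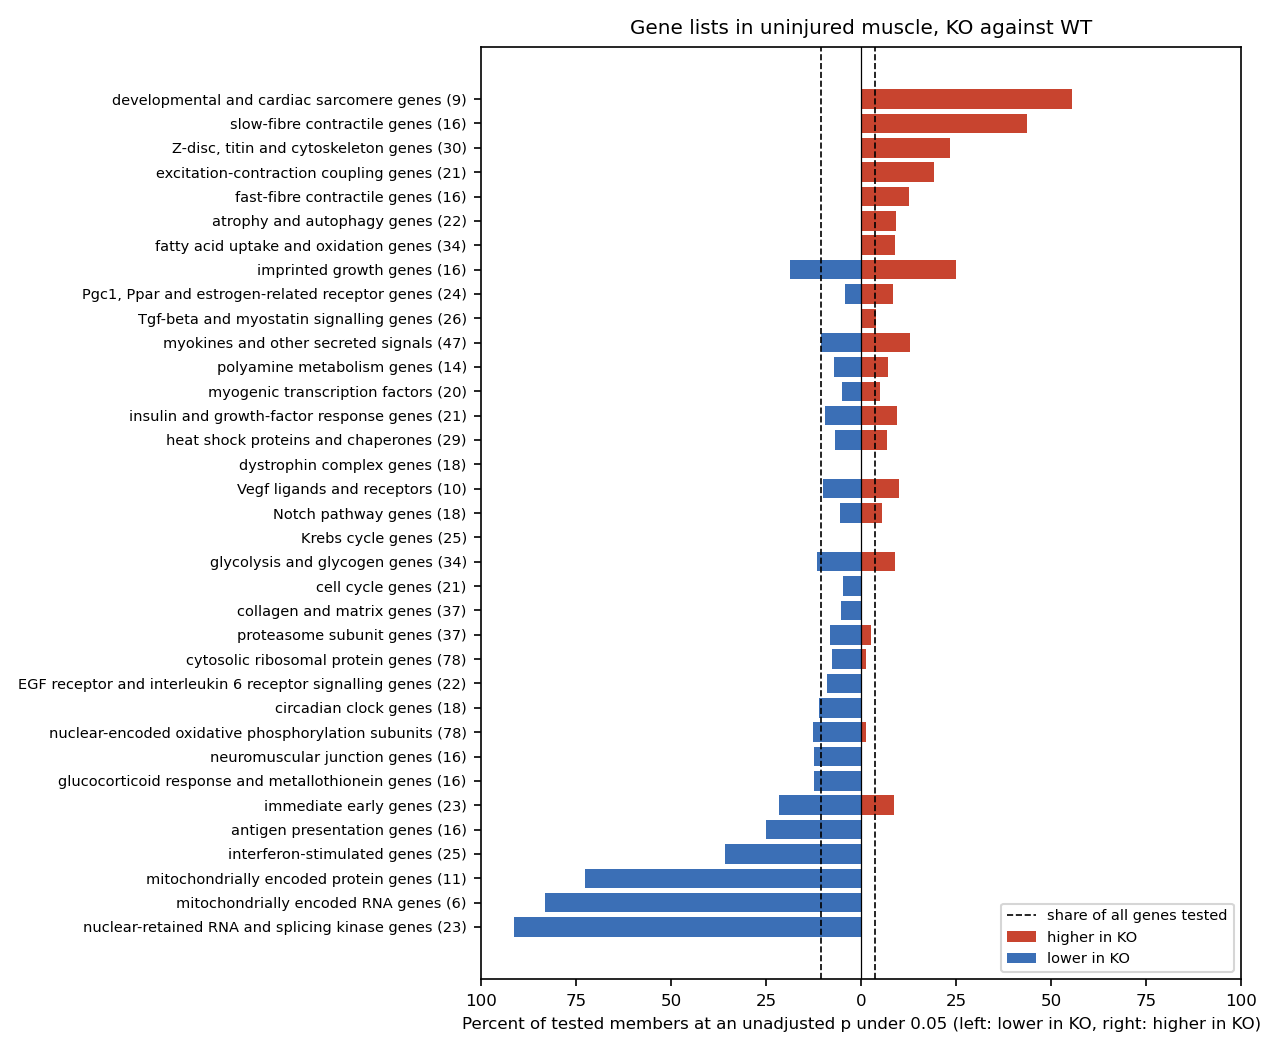
Percent of the tested members of each of 35 gene lists with an unadjusted limma p under 0.05, lower in KO to the left in blue and higher to the right in red, with the number tested in brackets and dashed lines at the shares of all genes tested (10.7% lower, 3.53% higher). Nuclear-retained RNA and mitochondrially encoded genes stand at the lower end and sarcomere genes at the upper end. All lists were chosen with earlier results of these data known.

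Among nuclear genes for mitochondrial and metabolic proteins, the share of members higher at an unadjusted p under 0.05 was above that of all genes in 3 of 5 lists. Of 78 nuclear-encoded subunits of oxidative phosphorylation, 10 were lower (12.8% against 10.7%) and 1 higher (1.28% against 3.53%), and the median of -0.19 was that of all genes. Atp5l, a subunit of the ATP synthase, was at 221, 250 and 286 RPM in WT and 133, 106 and 94.8 RPM in KO (limma adjusted p = 0.0923). None of 25 Krebs cycle genes reached an unadjusted p under 0.05 with limma and none passed the adjusted p with limma, edgeR or DESeq2. At that unadjusted p 5 were higher without KO replicate 2, against 7.57% of all genes, and 5 lower without KO replicate 3, against 16.6%. Among 34 glycolysis and glycogen genes 3 were higher (8.82%) and 4 lower (11.8%), including Pfkl, the liver-type phosphofructokinase, at 8.95, 5.32 and 9.72 RPM in WT and 26.7, 15.5 and 35.9 RPM in KO (limma adjusted p = 0.148). Pfkfb3, which makes the activator of phosphofructokinase, was at 654, 481 and 601 RPM in WT and 333, 177 and 369 RPM in KO (limma adjusted p = 0.204). The summed level of the 35 glycolysis and glycogen genes in the table was 58109, 60396 and 58148 RPM in WT and 72003, 80289 and 68735 RPM in KO, with no overlap on the RPM scale. The sum of the 78 oxidative phosphorylation subunits did not overlap either but was lower in KO, at 41210 to 43845 RPM in WT and 32355 to 39288 RPM in KO. The medians of all 5 lists changed sign with the scaling, that of the glycolysis list from -0.0951 to 0.244 over 4 scalings. Among 34 fatty acid genes 3 were higher (8.82%) and none lower, and among 24 genes of the Pgc1, Ppar and estrogen-related receptor group 2 were higher (8.33%) and 1 lower (4.17%). The counts of 3, 3 and 2 higher genes were 7, 7 and 4 without KO replicate 2, against 7.57% of all genes. The first 2 of these counts were 1 without WT replicate 1, against 2.24%. Limma called no member of these metabolic lists, edgeR called 1 glycolysis gene, and DESeq2 called 2 oxidative phosphorylation subunits lower, 4 glycolysis genes higher and 1 lower, 3 fatty acid genes higher and 2 genes of the Pgc1 group higher.

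Genes of protein synthesis and turnover had shares of lower members below the 10.7% of all genes at an unadjusted p under 0.05. Of 78 cytosolic ribosomal protein genes 6 were lower (7.69%) and 1 higher (1.28% against 3.53%). Rpl29 was at 85.0, 95.2 and 61.9 RPM in WT and 23.4, 10.6 and 23.8 RPM in KO (difference -2.07, SE 0.36, limma adjusted p = 0.058), and it passed under TMM scaling. Of 37 proteasome genes 3 were lower (8.11%) and 1 higher (2.70%). Of 22 atrophy and autophagy genes 2 were higher (9.09%) and none lower, with Fbxo31, a ubiquitin ligase subunit, at 78.0, 66.5 and 80.3 RPM in WT and 133, 105 and 174 RPM in KO (limma adjusted p = 0.214). Of 29 heat shock and chaperone genes 2 were higher and 2 lower (6.90% each), and without KO replicate 3, 7 were lower, against 16.6% of all genes. Limma called none of these genes, edgeR called 1 ribosomal protein gene lower, and DESeq2 called 2 ribosomal protein genes lower and 2 genes higher in each of the other 3 lists.

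The series asks about secreted signals of muscle, called myokines, and 47 of 69 listed genes of this kind were tested. At an unadjusted p under 0.05, 6 were higher (12.8% against 3.53%) and 5 lower (10.6% against 10.7%), and none passed the limma adjusted p. These counts moved with the scaling, to 8 higher and 4 lower under TMM scaling. With scaling to reads outside mitochondrial genes 3 were higher and 8 lower, where the median of all genes was -0.321. EdgeR called 1 higher and 1 lower, and DESeq2 3 higher and 1 lower. Vegfa, the growth factor of blood vessels, was at 264, 179 and 192 RPM in WT and 76.0, 45.4 and 74.1 RPM in KO (difference -1.70, SE 0.30, limma adjusted p = 0.058). It passed under TMM scaling, with an adjusted p of 0.0263. Of 10 tested Vegf ligands and receptors 1 was higher (10.0% against 3.53%) and 1 lower (10.0% against 10.7%) at an unadjusted p under 0.05. The higher one was Vegfb, at 73.5, 93.6 and 101 RPM in WT and 139, 148 and 131 RPM in KO (limma adjusted p = 0.279). Lep, the hormone leptin made by fat cells, was at 0.869, 1.60 and 1.19 RPM in WT and 6.89, 6.85 and 16.1 RPM in KO (difference 2.21, SE 0.42, limma adjusted p = 0.0689). Tgfb1 was at 3.09, 1.06 and 3.20 RPM in WT and 8.52, 6.06 and 7.15 RPM in KO, which did not pass.

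Receptor signalling genes downstream of such factors had shares of lower members below the 10.7% of all genes. Among 22 genes of EGF receptor and interleukin 6 receptor signalling 2 were lower at an unadjusted p under 0.05 (9.09%), Osmr, the oncostatin M receptor, at 17.2, 19.1 and 16.8 RPM in WT and 8.60, 4.09 and 6.34 RPM in KO, and Socs2, a feedback inhibitor of cytokine signalling, at 30.1, 13.3 and 23.5 RPM in WT and 10.9, 3.94 and 4.93 RPM in KO. Their limma adjusted p values were 0.138 and 0.157. Among 18 Notch pathway genes 1 was higher and 1 lower (5.56% each), and among 26 Tgf-beta and myostatin genes 1 was higher (3.85% against 3.53%). Without KO replicate 3, 6, 5 and 3 genes of these 3 lists were lower, where 16.6% of all genes were. Of 21 insulin and growth-factor response genes 2 were higher and 2 lower (9.52% each), and 5 were higher without KO replicate 2, against 7.57% of all genes. Tbc1d4, which holds back the glucose transporter from the cell surface, was one of the lower genes, at 68.6, 36.7 and 50.9 RPM in WT and 13.4, 10.4 and 26.1 RPM in KO (limma adjusted p = 0.124). No gene of these 4 lists was called by limma or edgeR, and DESeq2 called 2 lower in the first, none in the Notch list, 1 higher in the Tgf-beta list, and 3 higher and 1 lower in the insulin list.

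Of the genes that respond within hours to activity, stress or time of day, the immediate early genes had shares of lower and of higher members above those of all genes. The clock and glucocorticoid lists had about the share of lower members of all genes. Of 23 immediate early genes 5 were lower (21.7% against 10.7%) and 2 higher (8.70% against 3.53%), with a median of -0.43. Klf2, a flow-responsive zinc finger factor, was at 54.9 to 70.0 RPM in WT and 18.8 to 25.7 RPM in KO (limma adjusted p = 0.0655). Dusp1, a phosphatase of MAP kinases, was at 72.2, 69.7 and 73.0 RPM in WT and 14.5, 10.2 and 46.6 RPM in KO (limma adjusted p = 0.153). Of 18 circadian clock genes 2 were lower (11.1% against 10.7%), with a median of -0.31. Nr1d2, the clock repressor REV-ERB beta, was at 221, 162 and 190 RPM in WT and 73.6, 82.0 and 71.8 RPM in KO (difference -1.31, SE 0.24, limma adjusted p = 0.0646). Of 16 glucocorticoid and metallothionein genes 2 were lower (12.5% against 10.7%). That count was 7 without KO replicate 3, against 16.6% of all genes. It was 1 without WT replicate 2 or KO replicate 1, against 10.1% and 8.02%. Sgk1, a kinase induced by glucocorticoids, was at 147, 139 and 159 RPM in WT and 25.1, 23.4 and 97.5 RPM in KO, where KO replicate 3 stood nearer to WT. DESeq2 called 2, 1 and 1 lower in the 3 lists, and limma and edgeR called none.

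The other myogenic transcription factors showed no common direction. Of 20 tested genes, 10 had an estimate above and 10 below 0, from -1.08 to 1.17, and Myf6 is not among them. Maf was lower at an unadjusted p under 0.05, at 324, 359 and 270 RPM in WT and 155, 131 and 164 RPM in KO, and Nfix, a factor of the switch from embryonic to fetal muscle, was higher, at 96.4, 44.7 and 102 RPM in WT and 177, 152 and 191 RPM in KO. Their limma adjusted p values were 0.106 and 0.186. None of the 20 was called by limma or edgeR, and DESeq2 called 1 in each direction. Of 16 imprinted growth genes 4 were higher (25.0% against 3.53%) and 3 lower (18.8% against 10.7%). Among them were Nnat at 0.772, 2.66 and 9.36 RPM in WT and 28.9, 17.7 and 41.6 RPM in KO, and Peg3 at 59.7, 45.7 and 37.0 RPM in WT and 22.3, 14.3 and 12.8 RPM in KO, each with a limma adjusted p of 0.097. Of 37 collagen and matrix genes 2 were lower (5.41% against 10.7%), of 21 cell cycle genes 1 was lower (4.76%), and of 14 polyamine genes 1 was lower and 1 higher (7.14% each). Without KO replicate 3, 5 collagen and matrix genes and 5 polyamine genes were lower, where 16.6% of all genes were.

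Markers of cells between the fibres differed by type. In bulk tissue fewer cells of a type and less RNA per cell cannot be told apart. All 12 macrophage markers had a lower estimate in KO, 6 at an unadjusted p under 0.05 (50.0% against 10.7%), with a median of -0.97, and their summed level was 274, 145 and 241 RPM in WT and 123, 78.7 and 134 RPM in KO. Limma and edgeR called none of them and DESeq2 called 1. Lyz2, the lysozyme of macrophages, was at 91.5, 47.3 and 84.3 RPM in WT and 42.8, 23.6 and 42.6 RPM in KO. The count of 6 was 1 without WT replicate 1, 2 without WT replicate 3, 3 without KO replicate 1 and 2 without KO replicate 2, and 7 without WT replicate 2 or KO replicate 3. Of 25 interferon-stimulated genes 9 were lower (36.0% against 10.7%) and none higher, with a median of -0.74, and of 16 antigen presentation genes 4 were lower (25.0%). No gene of either list was called by limma or edgeR, and DESeq2 called 4 and 1. The count of 9 interferon-stimulated genes was 9 without KO replicate 2 and 8 without WT replicate 2. Ifit3, induced by interferon, was at 5.95, 5.32 and 9.39 RPM in WT and 0.837, 1.34 and 0.865 RPM in KO (limma adjusted p = 0.0694). The part of the macrophage markers in the interferon genes was not tested.

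Adipocyte markers went the other way. Of 13, 7 were higher (53.8% against 3.53%) and 1 lower, with a median of 1.38, none called by limma, 1 higher with edgeR, and 7 higher and 1 lower with DESeq2. Ucp1, the uncoupling protein of brown fat, was at 4.31, 4.79 and 25.5 RPM in WT and 30.3, 42.8 and 104 RPM in KO, and Pparg, the regulator of fat cell formation, was at 5.50, 3.19 and 7.74 RPM in WT and 20.5, 10.5 and 18.9 RPM in KO. Adipoq, the hormone adiponectin, was at 21.2, 18.1 and 70.9 RPM in WT and 132, 37.3 and 105 RPM in KO, with KO replicate 2 inside the WT range. The count of 7 higher markers was 8 without KO replicate 2 and 5 without WT replicate 2. The lower marker was Car3, a carbonic anhydrase abundant both in fat and in slow fibres, at 5452, 2081 and 4861 RPM in WT and 1687, 930.4 and 2636 RPM in KO. Car3 was the most abundant of the 13 genes in every WT library, and the summed level of the list overlapped between the genotypes, at 3703 to 8292 RPM in WT and 3424 to 7396 RPM in KO. Leptin, described above, is one of these 13 markers, and the part of fat in its level was not tested.

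The lists of the other cell types were short. None of 9 satellite cell markers and none of 12 endothelial markers reached an unadjusted p under 0.05 with limma, and no tool of limma, edgeR and DESeq2 called any of them. The summed satellite cell markers were 221 to 268 RPM in WT and 201 to 245 RPM in KO. Of 10 smooth muscle markers 1 was higher (10.0% against 3.53%), and of 11 markers of fibroblasts and fibro-adipogenic progenitors 3 were lower (27.3% against 10.7%), with a median of -0.66. That count was 6 without WT replicate 2, and without WT replicate 1 no member reached that p. Of 5 red blood cell markers 2 were lower (40.0%, and 4 without KO replicate 2), of 7 tendon cell markers 1 (14.3%), of 4 lymphocyte markers 1 (25.0%), and no neutrophil marker was high enough to be tested.

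**Figure D4:**
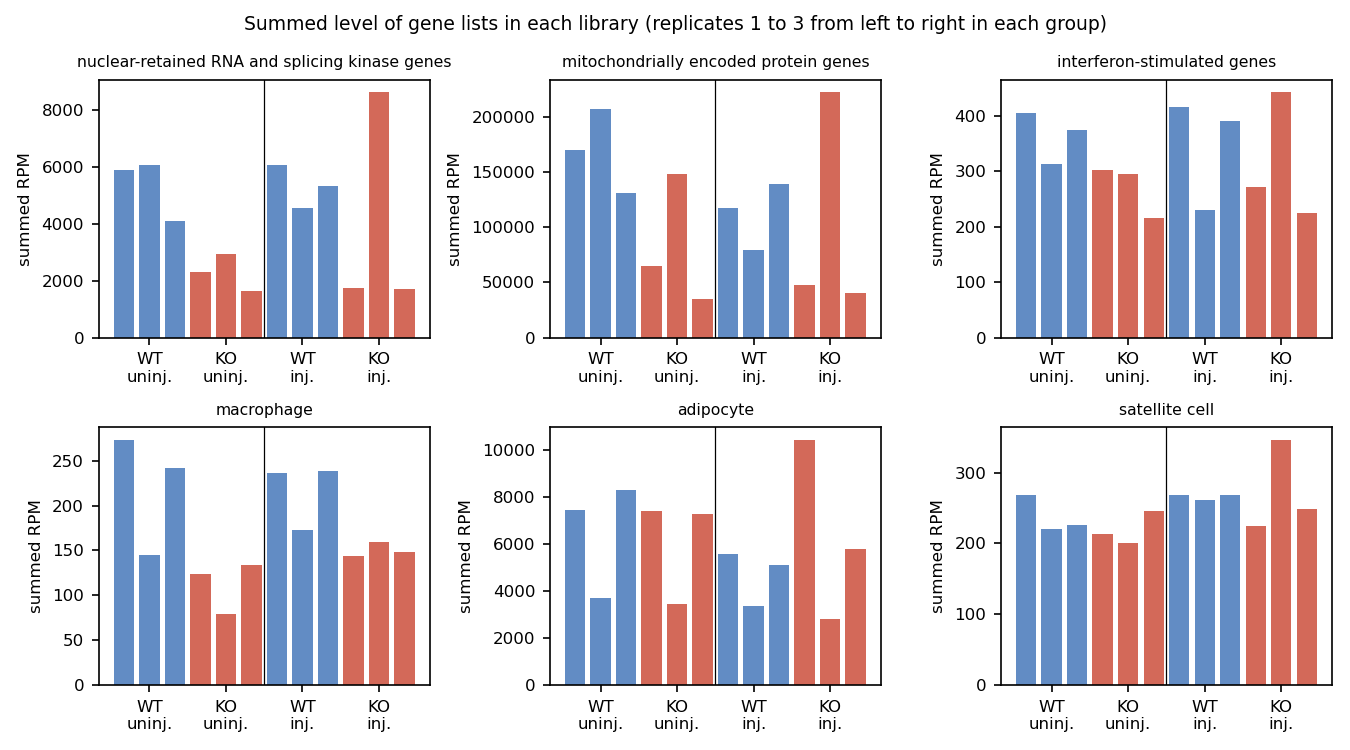
Summed RPM of 6 gene lists in each of the 12 RNA libraries, WT in blue and KO in red, uninjured to the left of the line and injured to the right, with replicates 1 to 3 in order within each group. Uninjured KO libraries lie below WT for nuclear-retained RNA and macrophage markers, and injured KO replicate 2 is the highest of all libraries for nuclear-retained RNA and mitochondrial protein genes.

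The ChIP-seq peak list gave a second readout for the same genes in another system, primary myotubes, from 1 library and 1 control. Peak summits were set against gene starts of GRCm38.p6, since the submitters' processing notes name mm10 and GRCm38.p5, which share chromosome coordinates with it. Of the 12460 genes tested 9484 had a start in the table, and 18.4% of these had a summit within 10 kb and 4.38% within 1 kb. Of the 35 called genes 16 had a start and 3 of these had a summit within 10 kb (18.8%): Fnbp4 at 350 bases, Exoc7 at 5827 and Rbp7 at 9387. Myh6 had none within that distance, with the nearest at 20483 bases, and Chrnb1 had none, with the nearest at 81165. Genes with an unadjusted p under 0.05 had a summit within 10 kb in 26.0% of 288 higher and 14.7% of 1014 lower genes. The share among called genes lay close to that of all genes tested.

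Lists of sarcomere genes had summits in larger shares, given here as a description. A summit lay within 10 kb of 12 of 14 slow-fibre genes (85.7%), 7 of 11 fast-fibre genes (63.6%), 15 of 21 Z-disc genes (71.4%) and 8 of 12 dystrophin complex genes (66.7%), the last without a gene that differed. Among the slow-fibre genes the nearest summit was 2875 bases from Myh7, 580 from Tnnt1, 724 from Tnni1 and 1196 from Tnnc1. Des had one at 795 bases and Ckm at 935. Of the nuclear-retained and splicing genes 3 of 20 had a summit within 10 kb (15.0%) and of the interferon-stimulated genes 2 of 21 (9.52%). Vegfa had one at 4270 bases.

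**Figure D5:**
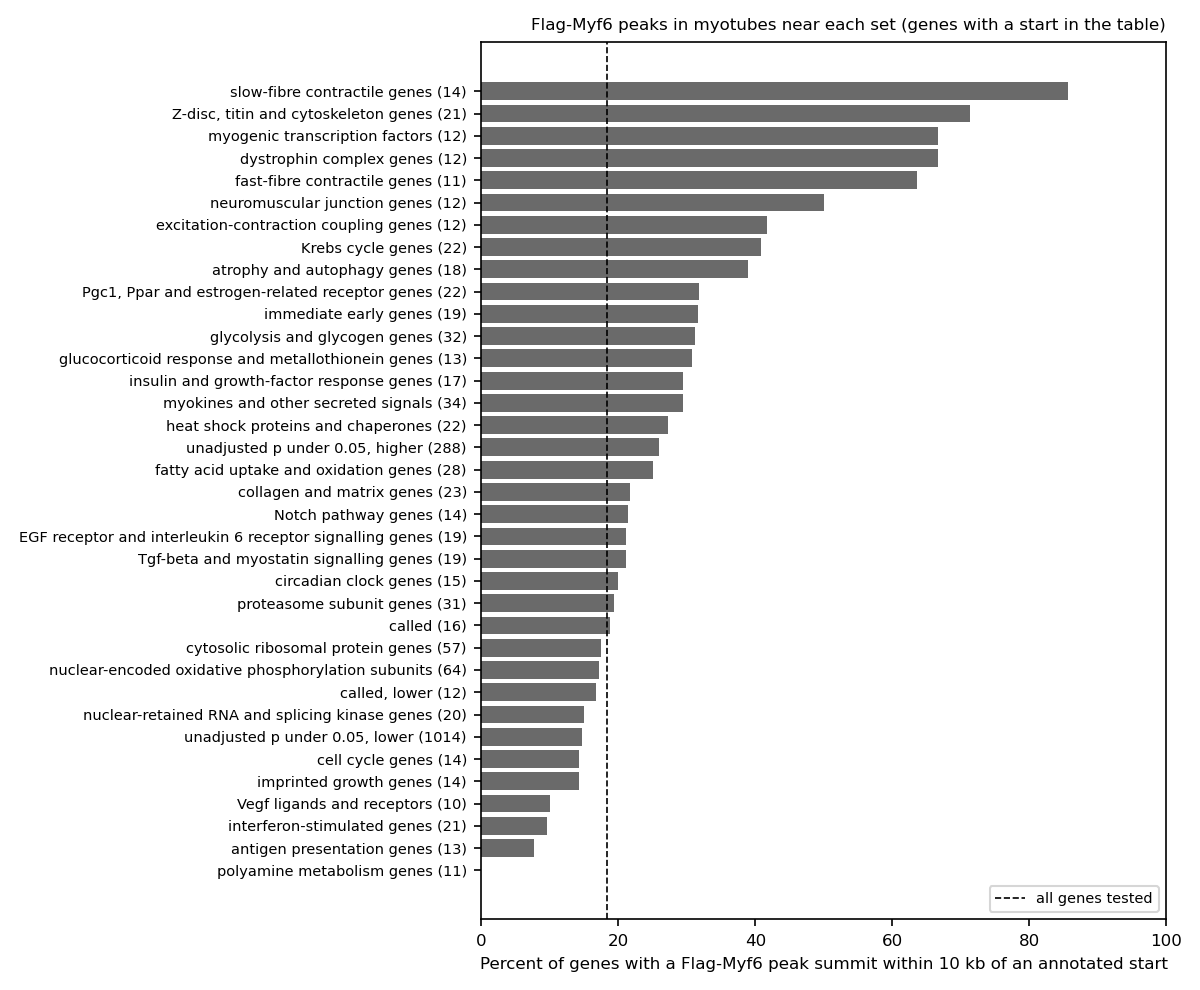
Percent of genes with a Flag-Myf6 peak summit within 10 kb of an annotated start, for each gene set with at least 10 such genes (number in brackets), with a dashed line at the 18.4% of all genes tested. Slow-fibre genes reach 85.7%, and the called genes stand at 18.8%, next to the dashed line.

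The injured libraries, read as the other legs of the same animals, are not independent animals but are separate libraries. Of the 35 called genes 25 lay apart between the genotypes in the same direction there, all 16 higher ones and 9 of the 19 lower ones, against 14.0% of all tested genes. Injured KO replicate 2 stood apart from the other injured KO libraries. For 13 of the 19 lower genes its level was nearer the mean of the injured WT libraries than that of the other injured KO libraries, and for 1 of the 16 higher genes. That library also had the highest mitochondrial share of the 12, 23.2%. Clk4 was at 109, 78.9 and 113 RPM in injured WT replicates 1, 2 and 3 and at 25.1, 130 and 29.3 RPM in injured KO, and mt-Tc was at 81.8, 36.6 and 119 RPM in injured WT and 2.49, 119 and 2.61 RPM in injured KO. Exoc7 did not follow this pattern, at 260, 141 and 253 RPM in injured WT and 56.6, 57.3 and 49.2 RPM in injured KO. Myf6 was low in all 3 injured KO libraries, at 3.32, 2.88 and 3.02 RPM, and Myh6 was high in all 3, at 215, 74.7 and 267 RPM. Myh7 was also apart in the injured libraries, at 73.1, 34.6 and 109 RPM in WT and 913, 209 and 469 RPM in KO.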

How the data were processed

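Per the labels' protocols, Trizol was used for RNA extraction and the TruSeq v2 kit for libraries of total RNA. The submitters' processing notes name HISAT2 2.1.0, featureCounts, DESeq2, Bowtie 1.1.0 and MACS2 2.1.0.20140616 and the builds mm10 and GRCm38.p5. Which tool made which values, the annotation, the use of strand and the handling of multi-mapping reads are not given in the sources used here. The authors deposited RPM values per gene and library, which sum to 1000000 in each library. Their table also holds the authors' log2 fold changes, p-values and q-values. The deposited peak list gives the authors' signal height, fold enrichment and −log10 p and q per peak.

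RPM values were put on the log2(RPM + 1) scale. Genes that reached 1 RPM in 3 or more of the 6 libraries were fitted with limma 3.58.1 under R 4.3.3 (eBayes with trend, two-sided), and p-values were adjusted by Benjamini-Hochberg over all of them. Differences on this scale understate those of low genes. Whole reads were recovered from the RPM steps (100% of values within 0.1 read) and tested with edgeR 4.0.16 and DESeq2 1.42.0 as alternatives. The limma script was tested on simulated data first. Floors of 3 reads cover counting error only. Nothing states that libraries of a genotype are separate animals beyond their numbers, so p-values measure the spread between these libraries.

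Genes named were Myf6, the 10 largest rises and falls among called genes that do not overlap, and in each of 47 lists the called members and up to 3 with the smallest unadjusted p under 0.05. The other called genes, and Rps3a1, Rps15a, Tpm3, Tnni1, Myl2, Malat1, Neat1, Adipoq and Car3, were added after their values were seen, as were genes named only for a peak distance or for having no read. The gene set and all lists were chosen with earlier results of these data known. Of the genes tested 12448 were found in a list of gene names.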

Additional observations from a re-analysis of the deposited data

How the results depend on the processing

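The count of 35 called genes was 104 with TMM scaling, 122 with upper quartile scaling, 189 with scaling to reads outside mitochondrial genes, 167 with all 12 libraries in the fit, 55 with edgeR, 663 with DESeq2, 20 with a pseudocount of 0.1, 7 with at least 1 RPM in all 6 libraries, 1 with no filter on low values and 331 in the authors' deposited table. Of the 35, those passing with the same sign were 32 in the authors' deposited table, 31 with all 12 libraries and 20 with a pseudocount of 0.1. Leaving out 1 library gave 3 (without KO replicate 1) to 84 (without KO replicate 3) called genes. Across 530 values of the called genes over these alternatives, none reversed, 351 stayed on their side of the threshold and 179 no longer passed. The Myf6 difference was -3.90 without a filter on low values, with a limma adjusted p of 0.120, and -4.39 to -3.34 with 1 library left out. A replicate block in the fit gave 752 called genes, 181 of them higher. Same-numbered libraries had correlations of deviations of 0.0341, 0.259 and 0.384 across 12460 genes, and WT replicate 1 correlated best with KO replicate 2 (0.0981), so the numbers are not taken to pair the samples. The cause of these shifts was not tested. In WT replicate 2 depth limits what can be seen under 1.60 RPM. With 1 library left out in turn, the members at an unadjusted p under 0.05 numbered 2 to 7 antigen presentation genes lower (all libraries 4), 2 to 8 cytosolic ribosomal protein genes lower (all libraries 6), 2 to 8 immediate early genes lower (all libraries 5), 2 to 7 glycolysis and glycogen genes lower (all libraries 4). They numbered 3 to 7 developmental and cardiac sarcomere genes higher (all libraries 5), 3 to 8 excitation-contraction coupling genes higher (all libraries 4), 2 to 4 imprinted growth genes higher (all libraries 4), 2 to 7 secreted signals higher (all libraries 6).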
